A study of Mus musculus with 15 samples.

Results

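The cortex of 5 mice fed the CSF1R inhibitor PLX3397 for 9 days was compared, gene by gene, with the cortex of 5 mice on control food, to see what it lost or gained beside its microglial markers. These are 10 of the 15 libraries of the series, and the comparison covered 18369 genes that passed a filter on low counts, of 53278 gene symbols in the deposited table. All mice were C57BL/6J males, which the labels place at 10 to 20 weeks of age, and no transgene or other allele is named. Each library came from the cortex of 1 mouse, so the error of each value includes differences between animals. The other 5 libraries came from mice that had 9 days of PLX3397 and then 9 days of control food. They entered the count filter, the scaling factors and the shared estimate of the spread, but not the contrast.

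Microglia, the macrophages that reside in brain tissue, live on a signal through the receptor tyrosine kinase CSF1R, which binds the cytokines CSF1 and IL-34, and PLX3397 blocks this kinase along with the related kinases KIT and FLT3. Several macrophage transcripts are also made by astrocytes, vessel cells, neurons or cells of the oligodendrocyte lineage, so the share of such a transcript that remains is given with each gene. Which cells the remaining RNA comes from was not tested. Bulk RNA does not tell fewer cells of a type from less RNA per cell.

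The labels were checked first. Csf1r was at 85.8, 87.7, 89.3, 79.4 and 82.1 CPM in control mice 1 to 5 and 0.427, 0.176, 0.174, 0.171 and 0.129 CPM in PLX3397 mice 1 to 5, where CPM is the count scaled to the library total after TMM normalization. The groups were far apart, and 0.254% of the control mean remained. Cx3cr1, the fractalkine receptor, and P2ry12, an ADP receptor of microglia, were left at 0.23% and 2.96%, and no PLX3397 library came near a control level of any of the 3 genes. Csf1r shares exonic bases with Hmgxb3 and P2ry12 with Med12l on the opposite strand, so the source of the last reads is uncertain. Library totals were 24347802 to 48617851 counts in control and 23413551 to 29482140 on PLX3397, so 1 CPM rests on 23.4 to 48.6 reads and genes well below that are the least precise. Markers of neighbouring tissue varied between single mice. Ttr, the transthyretin made by the choroid plexus, was at 3.24, 2.5, 12.7, 2.41 and 14.7 CPM in control mice 1 to 5 and 69.8, 179, 97.8, 8.57 and 4.39 CPM in PLX3397 mice 1 to 5. It was high in PLX3397 mice 1, 2 and 3 and the groups overlapped, and 0 of 11 choroid plexus genes were called. All 11 were nonetheless above 0 in log2 fold change (median 0.99), and their summed level was 11.7 to 29.1 CPM in control and 18.5 to 234 CPM on PLX3397, 485% of the control mean. Summed over 9 hippocampal genes, control mouse 1 (339.8 CPM) and PLX3397 mouse 2 (302.8 CPM) stood above the other libraries of their groups, at 194.7 to 206.9 and 185.6 to 212.1 CPM. The 3 tested erythroid genes were lower on PLX3397 (34% of the control sum, overlapping groups) and not called. Of genes of other sources, Ighm of 2 B cell genes and Doc2g of 4 olfactory bulb genes were called lower and Slc17a6 of 7 thalamic genes higher, none of them stable. No gene of 3 tested T and natural killer cell genes was called, and the neutrophil, monocyte and mast cell genes did not pass the filter. How far tissue of this kind bears on the results below was not tested.

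Similar numbers of genes were lower and higher, and the deep changes were nearly all losses. At a Benjamini-Hochberg adjusted p under 0.05 in edgeR's quasi-likelihood test, 3038 genes were called (16.5% of those tested), 1505 higher on PLX3397 (8.19%) and 1533 lower (8.35%). Of the lower genes 280 (1.52% of those tested) had fallen by at least 1 log2 unit, while 19 higher genes (0.103%) had risen by as much. The deepest class, lower by 4 log2 units or more, held 90 genes with 595.6 CPM in control and 9.153 CPM on PLX3397. The mildest class, higher by under 0.25, held 1049 genes and 154900 CPM in control. A call was termed stable where the gene was also called in the same direction in each of 10 fits that left out 1 library and in a fit with trends over gene length and GC content removed. There were 652 stable higher (3.55%) and 613 stable lower genes (3.34%), and 524 of the latter were outside the myeloid gene lists. Those lists are not complete. They hold 46 of the 90 genes of the deepest class, and Bin2 and Rasal3, genes of phagocytes and blood cells, lie outside them. The 524 are therefore not a count of losses in other cells. All 90 genes of the deepest class were stable, against 74 of the 702 that were lower by under 0.25. Counts of list members below are of stable calls unless they are said to be called.

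**Figure D1:**
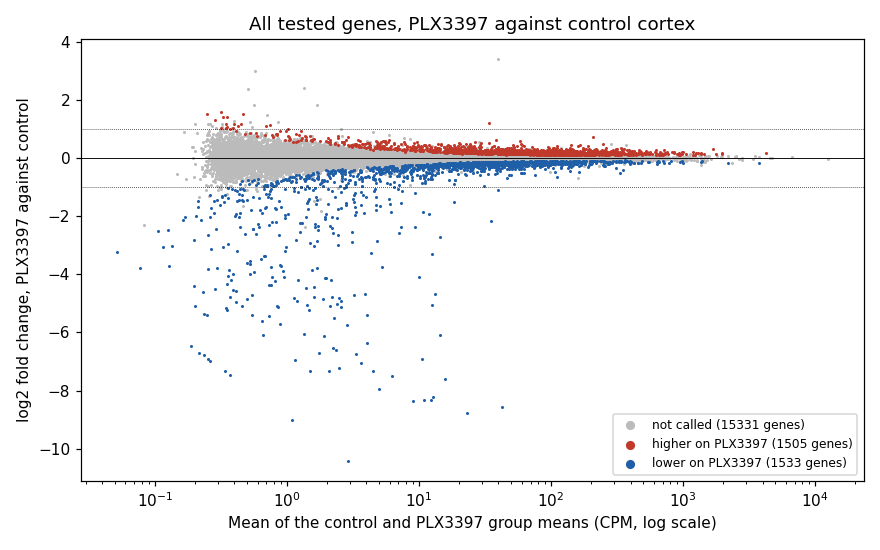
Log2 fold change of PLX3397 against control (vertical axis) against the mean of the 2 group means in CPM on a log axis, 1 point per tested gene, with dotted lines at 1 log2 unit. Of the 1533 lower genes 280 lie past the lower line, some of them far below it, and of the 1505 higher genes 19 lie past the upper one.

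The promoters of the deeply lowered genes can be set beside this, because PU.1, the factor encoded by Spi1, is known to bind an ETS site of the form GAGGAAG in myeloid promoters. These 7 letters were searched on both strands from 250 bases before to 50 after each RefSeq start (GRCm38.p6). They occurred in 80 of 249 promoters of genes lower by at least 1 log2 unit (32.1%), against 197 of 1270 for the other lower genes (15.5%), 193 of 1429 for higher genes (13.5%), 1687 of 13170 for genes not called (12.8%) and 4477 of 32851 in all (13.6%). Genes with several starts count several times. Of the 280 genes lower by at least 1 log2 unit, 203 had a promoter in this set, and the rest are not in the share. The shares are a description of letters, not of binding. The 4 windows shown are those of the genes with the smallest adjusted p among deeply lowered genes that hold the match in the 200 bases before the start. Windows with an annotated exon were left out, a limit added after the data were seen. All are printed 5′ to 3′ on the gene's strand with the match in capitals, which in Trem2 is the reverse complement. They belong to P2ry13, an ADP receptor gene (chr3:59210883-59211082, minus strand), and Itgam, the integrin subunit CD11b (chr7:128062440-128062639, plus strand). The others belong to Dock2, an activator of the GTPase Rac in leukocytes (chr11:34783906-34784105, minus strand), and Trem2, a lipid-sensing receptor (chr17:48346201-48346400, plus strand).
P2ry13: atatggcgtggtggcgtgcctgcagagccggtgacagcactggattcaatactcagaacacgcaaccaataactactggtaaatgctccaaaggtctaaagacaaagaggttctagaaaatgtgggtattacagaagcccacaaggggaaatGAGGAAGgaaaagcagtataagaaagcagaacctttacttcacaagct
Itgam: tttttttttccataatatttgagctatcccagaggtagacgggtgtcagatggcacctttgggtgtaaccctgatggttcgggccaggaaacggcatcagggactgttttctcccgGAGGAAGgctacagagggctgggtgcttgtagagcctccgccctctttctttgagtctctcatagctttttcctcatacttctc
Dock2: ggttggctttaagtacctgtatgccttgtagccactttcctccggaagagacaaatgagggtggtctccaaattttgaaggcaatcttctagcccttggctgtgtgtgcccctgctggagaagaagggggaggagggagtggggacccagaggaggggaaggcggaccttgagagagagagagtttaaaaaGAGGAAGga
Trem2: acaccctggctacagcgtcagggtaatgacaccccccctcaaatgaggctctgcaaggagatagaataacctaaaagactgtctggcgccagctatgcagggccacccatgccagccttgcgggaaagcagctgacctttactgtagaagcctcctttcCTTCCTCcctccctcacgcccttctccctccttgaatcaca
The match lay 48, 84, 9 and 41 bases before the start in P2ry13, Itgam, Dock2 and Trem2. P2ry13 was left at 0.548% of control, Dock2 at 2.13% and Trem2 at 10.2%, and Itgam had 0 reads in all 5 PLX3397 libraries, at least 267.6-fold lower against a floor of 3 reads over the group.

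Transcription factors that set microglial identity differed in depth of loss. Of 21 tested factors 10 fell and 1 rose, with a median log2 fold change of -0.40 against -0.0019 over all genes tested. Spi1, on chromosome 2 from 91082390 to 91115756, was at 2.97, 2.15, 2.3, 2.94 and 2.99 CPM in control mice 1 to 5 and 0.0356, 0, 0, 0.0683 and 0.086 CPM in PLX3397 mice 1 to 5. Control mice lay close together and each PLX3397 library held at most a few reads, a log2 fold change of -6.04 (SE 0.32, edgeR adjusted p = 1.04e-13). Irf8, a partner of PU.1, was left at 17%, Ikzf1 at 16.7% and Runx1, a factor of blood cell development, at 15.4%. Sall1, a factor that sets microglia apart from other macrophages, was at 24.3, 23.9, 24.5, 22.3 and 23.7 CPM in control mice 1 to 5 and 16.2, 13, 15.1, 12.5 and 13 CPM in PLX3397 mice 1 to 5. The groups did not overlap and 58.8% of control remained (edgeR adjusted p = 7.92e-10). Zeb2, a repressor that microglia share with neurons and oligodendrocytes, rose by 0.23 log2 units.

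Among genes outside every list, the 10 with the deepest stable loss at 1 CPM or more in control were all left at under 4% of control. They were ranked by fold change and entered through their control values, so a small remaining share follows from the choice. Bin2, a membrane-bending protein of phagocytes, was at 4.69, 3.87, 4.63, 4.13 and 3.47 CPM in control mice 1 to 5 and 0.107, 0, 0, 0 and 0 CPM in PLX3397 mice 1 to 5. PLX3397 mouse 1 gave all the remaining reads (-7.33, SE 0.36, edgeR adjusted p = 3.47e-14). Tifab, a regulator of signals from Toll-like receptors, was left at 0.474% of control and Rasal3, a Ras GTPase-activating protein of blood cells, at 1.37%. Ptafr, the receptor for platelet-activating factor, was left at 1.19%, the lectin gene Clec5a at 1.6% and Was, the actin regulator missing in Wiskott-Aldrich syndrome, at 1.98%. Gna15 (a G protein subunit), Myo1f (a myosin), Cd300c2 (a surface receptor) and Lyz2 (lysozyme) were left at 2.07%, 2.51%, 3.07% and 3.53%. Lyz2 and Cd300c2 have close paralogs, so reads could be split between copies.

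Macrophages at the borders of the brain, along vessels and in the meninges, also depend on CSF1R. Of 8 tested genes of that list (of 15 listed) 7 fell (median -2.75). The other listed genes did not pass the filter and all had fewer reads on PLX3397, such as Pf4 with 64 in control and 0 on PLX3397. Cbr2, a carbonyl reductase of these cells, was at 0.901, 0.943, 0.686, 0.572 and 0.591 CPM in control mice 1 to 5 and 0.107, 0.0353, 0, 0 and 0.086 CPM in PLX3397 mice 1 to 5. The groups did not overlap. Lyve1, a hyaluronan receptor, was left at 21.7%. Cd163, the haemoglobin scavenger receptor, was at 2.93, 2.76, 3.5, 2.82 and 3.5 CPM in control mice 1 to 5 and 2.03, 2.08, 2.47, 1.3 and 2.71 CPM in PLX3397 mice 1 to 5. No PLX3397 library reached a control level, and 68.3% of control remained (edgeR adjusted p = 0.037, a call that was not stable).

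Genes for lysosomes and lipid handling, many of which microglia share with other cells, ranged from members that nearly vanished to members that stayed. Of 57 lysosomal genes 15 fell and 0 rose (median -0.06). The cathepsin gene Ctss was left at 0.511% of control and the membrane protein gene Laptm5 at 1.45%. Hexa, which encodes a lysosomal enzyme subunit, was left at 76.9%. Ctsd, the aspartic protease cathepsin D, was at 162, 156, 169.6, 153 and 161 CPM in control mice 1 to 5 and 119, 130.0, 106, 121 and 109 CPM in PLX3397 mice 1 to 5. Groups did not overlap, and 73.2% remained (edgeR adjusted p = 2.89e-07). Grn, the gene of the lysosomal growth factor progranulin, was left at 77.2% and the asparaginyl protease gene Lgmn at 78.1%. Cst3, the secreted cathepsin inhibitor cystatin C, was at 456, 353, 427, 345 and 363 CPM in control mice 1 to 5 and 260.1, 337, 215, 307 and 245 CPM in PLX3397 mice 1 to 5. The groups came close without overlapping, and 70.1% remained (edgeR adjusted p = 0.0109, and 0.0843 with a replicate block and length and GC trends removed together). Ctsb, Ctsl and Lamp1 were at 95.9%, 95.7% and 99.4% of control and were not called. Grn shares exonic bases with Fam171a2, and Ctsd with a predicted gene.

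Of 33 genes for lipid and lipoprotein handling 6 fell and 1 rose (median -0.09). Lpcat2, an enzyme that makes platelet-activating factor, fell by 1.67 on the log2 scale and the transporter gene Abca9 by 1.22. Apoe, the main lipoprotein of the brain, was at 801, 731, 797, 721 and 713 CPM in control mice 1 to 5 and 688, 766, 617, 623 and 653 CPM in PLX3397 mice 1 to 5. The groups overlapped at 89% of control (edgeR adjusted p = 0.037, a call that was not stable). The lipoprotein lipase gene Lpl and the sterol exporter gene Abcg1 were at 111% and 102% and were not called.

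The genes with which phagocytes recognise dying cells differed between members as well. Of 41 tested, 8 fell and 2 rose. P2ry6, a receptor for UDP released from damaged cells, was left at 21%, and the integrin subunit gene Itgb5 at 51.2%. Mertk, Axl and their ligand gene Gas6, which bridge phagocytes to exposed phosphatidylserine, were at 102%, 95.8% and 100.4% of control and were not called, while the second ligand gene Pros1 was left at 75.9% (edgeR adjusted p = 0.00023). C4b, complement component 4, moved the other way and was at 22.6, 18.4, 22.8, 20.0 and 19.6 CPM in control mice 1 to 5 and 44.7, 52.3, 38.9, 50.3 and 49.9 CPM in PLX3397 mice 1 to 5. Every PLX3397 library exceeded every control library (1.19, SE 0.12, edgeR adjusted p = 1.79e-05). C4b lies on chromosome 17 from 34728380 to 34743882, and it has a close copy, C4a, whose reads the counting could have split.

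Genes for signals between immune cells were lowered in part. Of 42 tested genes for chemokines, cytokines and their receptors (of 69 listed) 13 fell and 0 rose, with a median of -0.23, also with Ccl9 at its bound. Of the 13, 10 encode receptors. The interleukin 10 receptor gene Il10ra was left at 27.2% and the interleukin 6 receptor gene Il6ra at 28.5%. The chemokine gene Ccl9 had 0 reads on PLX3397, at least 34.4-fold lower. The 2 tumour necrosis factor receptor genes differed in depth. Tnfrsf1b, whose product is known from immune cells, was left at 32.6%. Tnfrsf1a, which is expressed widely, was left at 75.6%. The interferon gamma receptor gene Ifngr1 was left at 70.2%. Among ligands for microglial receptors, Il34 and Cx3cl1 were at 94.3% and 93% of control and were not called.

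Several genes that make prostanoids and leukotrienes, lipid mediators that also act on vessels, fell deeply. In the list of vascular tone and prostanoid genes 6 of 41 fell and 2 rose. Hpgds, the synthase of prostaglandin D2 in blood-derived cells, was at 8.5, 8.98, 8.57, 8.29 and 8.03 CPM in control mice 1 to 5 and 0.605, 1.59, 1.22, 1.2 and 1.29 CPM in PLX3397 mice 1 to 5. The groups were far apart (-2.84, SE 0.13, edgeR adjusted p = 4.94e-15). Tbxas1, thromboxane synthase, was left at 14%, Ltc4s, leukotriene C4 synthase, at 11.7%, Alox5, the 5-lipoxygenase, at 26.9% and Hpgd, which degrades prostaglandins, at 19.9%. Ptgs1, the constitutive cyclooxygenase, was at 13.5, 15.6, 14.5, 13.4 and 15.9 CPM in control mice 1 to 5 and 10.3, 7.05, 9.16, 8.26 and 9.68 CPM in PLX3397 mice 1 to 5. Its groups did not overlap, and 60.9% remained (edgeR adjusted p = 5.91e-07). Ptgds, the other prostaglandin D2 synthase, known from meninges and oligodendrocytes, was at 99.9% of control and was not called. Ptger3, a prostaglandin E2 receptor, rose to 138% and Gucy1b3, which forms part of soluble guanylate cyclase, to 113%. A further 5 members were called higher without being stable, and the 7 called higher became 2 without control mouse 1 and 4 without PLX3397 mouse 3 or 5.

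Transforming growth factor beta 1 and its receptor fell. Of 33 genes of this pathway 4 fell and 0 rose (median -0.12), and 10 were called lower, and 5 with length and GC trends removed. Tgfb1, on chromosome 7 from 25687002 to 25705077, was at 5.39, 5.2, 5.14, 5.27 and 6.42 CPM in control mice 1 to 5 and 2.31, 1.52, 1.57, 1.81 and 1.63 CPM in PLX3397 mice 1 to 5. Control mouse 5 was highest and the groups did not overlap (-1.63, SE 0.13, edgeR adjusted p = 6.25e-10). Tgfbr1, its signalling receptor, was at 27.2, 28.9, 28.1, 27.8 and 25 CPM in control mice 1 to 5 and 11.1, 8.36, 11.5, 9.22 and 7.83 CPM in PLX3397 mice 1 to 5. It was left at 35.1%, against 76.5% for the partner receptor gene Tgfbr2 and 84.5% for Smad1, a factor of the bone morphogenetic protein branch. Tgfb2, the second ligand, was at 92.1% and was not called.

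Growth factor genes moved in both directions, with 4 of 42 lower and 4 higher. Tgfb1 and Grn, described above, are among the lower ones. Bdnf, a neurotrophin made by neurons, was left at 77.1% of control and Pdgfb, made by endothelium, at 71.8%. Igf1 was at 79.4% with overlapping groups (edgeR adjusted p = 0.0167, not stable). Hgf, hepatocyte growth factor, was at 4.49, 4.81, 4.11, 5.8 and 4.33 CPM in control mice 1 to 5 and 6.62, 6.14, 8.01, 6.42 and 8.69 CPM in PLX3397 mice 1 to 5. Every PLX3397 library was above every control library (0.61, SE 0.11, edgeR adjusted p = 0.000215). Egf and Nrg1, 2 ligands of the ErbB receptors, were at 159% and 126% of control, both stable calls. The 9 growth factor genes called lower became 5 without PLX3397 mouse 3.

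**Figure D2:**
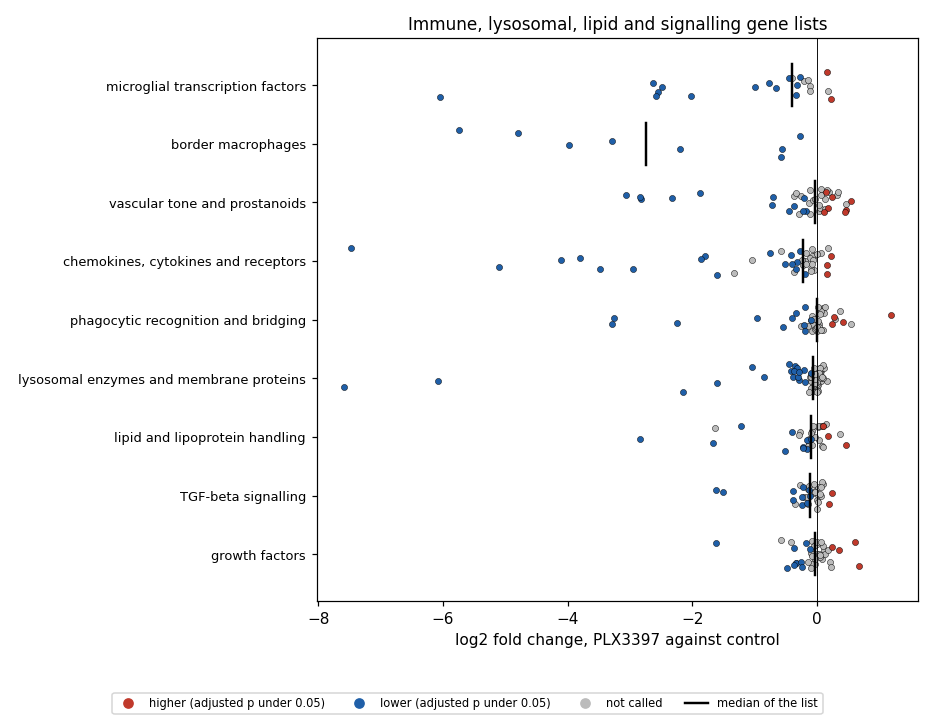
Log2 fold change of PLX3397 against control, 1 point per tested gene, in 9 gene lists, with points coloured by call and a black bar at each list's median. In lysosomal, lipid, phagocytic and growth factor lists the median lies near 0 while single members reach far left, down to Ctss at -7.59, and C4b at 1.19 lies farthest right of the phagocytic genes. Ccl9, at 0 reads on PLX3397, is drawn at its fitted value, which is not a measured fold.

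Receptor kinases close to CSF1R did not move as 1 group. Kit, a target of PLX3397 that cortical neurons express, was at 60.4, 48.1, 51.1, 51.8 and 48.9 CPM in control mice 1 to 5 and 53, 61.1, 49.2, 51.1 and 58.4 CPM in PLX3397 mice 1 to 5. The groups overlapped and the gene was not called (edgeR adjusted p = 0.536). Flt3 was at 108% and Pdgfrb, the receptor of pericytes, at 90.9%, and neither was called. Csf2rb, a receptor subunit for granulocyte-macrophage colony-stimulating factor with a close paralog, was left at 1.63%. Pdgfra, the receptor that marks oligodendrocyte precursors, on chromosome 5 from 75152292 to 75198215, was at 56.2, 51, 56.8, 54.4 and 52.9 CPM in control mice 1 to 5 and 26.1, 24.7, 27, 16.1 and 32 CPM in PLX3397 mice 1 to 5. PLX3397 mouse 4 was lowest and no PLX3397 library reached a control level (-1.11, SE 0.13, edgeR adjusted p = 5.37e-05). Pdgfra overlaps 2 predicted genes on the opposite strand.

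In the oligodendrocyte lineage, 16 of 36 precursor genes fell and 11 of 49 genes of mature cells rose, and no list was tested as a whole. Precursors divide and give rise to newly formed cells that then make myelin. No precursor gene was stable in the other direction (median -0.35), nor was a gene of mature cells and myelin (median 0.13). Of 25 genes of committed and newly formed cells 2 fell and 1 rose (median -0.02), with 3 called lower and 4 higher. The called mature genes numbered 17, 23 with length and GC trends removed and 12 to 17 over the fits without 1 library.

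Among precursor genes, Matn4, a matrix protein, was at 12.2, 9.82, 9.12, 11.9 and 11.1 CPM in control mice 1 to 5 and 4.16, 3.56, 4.15, 2.56 and 4.26 CPM in PLX3397 mice 1 to 5. PLX3397 mouse 4 was lowest here as well, and the groups did not overlap (-1.54, SE 0.11, edgeR adjusted p = 5.93e-11). The sialidase gene Neu4 was left at 37.6%, the synaptic organiser gene C1ql1 at 40.3%, the NG2 proteoglycan gene Cspg4 at 53.9% and the proteoglycan gene Vcan at 68.2%. Matn4 shares exonic bases with Rbpjl on the opposite strand. Ccnd1, a cyclin in this list, was left at 73.8%. Of 17 lineage factor genes 3 rose and 2 fell (median -0.03), with 4 called higher and 3 lower. Those that rose were Myrf, Zfp536 at 118% and Nkx6-2 at 133% of control. Those that fell were Prrx1, left at 78.6%, and Hes5, a Notch target of immature cells, left at 65.2% with overlapping groups. Olig1 was at 80.6% (called, not stable), and Olig2 and Sox10 were at 84% and 96.2% and were not called.

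At the intermediate stage, Gpr17, a receptor of committed precursors, was at 66.8, 50.9, 56.4, 52.2 and 61.9 CPM in control mice 1 to 5 and 36.7, 31.7, 51.9, 23.3 and 33.3 CPM in PLX3397 mice 1 to 5. PLX3397 mouse 3 fell within the control range and mouse 4 was lowest (-0.71, SE 0.16, edgeR adjusted p = 0.0106), and Gpr17 shares exonic bases with Lims2. Enpp6 and Bcas1, 2 genes of newly formed cells, were at 115% and 91.4% and were not called. At the mature stage, Opalin, a membrane protein of myelinating cells, was at 14.4, 17.4, 17.3, 19.2 and 14.9 CPM in control mice 1 to 5 and 23.2, 27, 25.4, 23.4 and 20.3 CPM in PLX3397 mice 1 to 5. All PLX3397 libraries exceeded all controls (0.53, SE 0.11, edgeR adjusted p = 0.00255). Tspan2 rose to 138% and the proteolipid gene Mal to 140.2% of control, and Myrf, the factor that drives myelin genes, to 120.2%. Mbp, a structural protein of myelin, was at 2227, 2085, 2199.5, 2134 and 2180.1 CPM in control mice 1 to 5 and 2539.8, 2239, 2330.5, 2096 and 2005 CPM in PLX3397 mice 1 to 5. Its groups overlapped, and it was not called (edgeR adjusted p = 0.576).

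**Figure D3:**
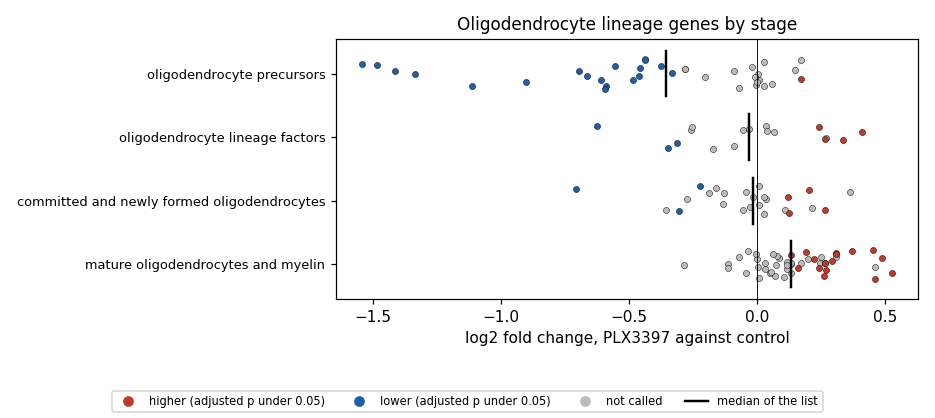
Log2 fold change of PLX3397 against control, 1 point per tested gene, in 4 lists of the oligodendrocyte lineage, with black bars at list medians. The list of lineage factors does not stand for 1 stage. Medians run from -0.35 in precursors to 0.13 in mature cells, and Matn4 at -1.54 lies farthest left.

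Of astrocyte genes 34 of 42 in the general list and 33 of 41 in the reactive list were not called. Over all genes tested 15331 of 18369 were not called. In the general list of 42 genes 2 rose and 2 fell, and in the reactive list of 41 genes 2 rose and 1 fell. Gfap, the intermediate filament of astrocytes, was at 189, 128, 168, 140.5 and 169 CPM in control mice 1 to 5 and 268, 298, 238, 251 and 247 CPM in PLX3397 mice 1 to 5. All PLX3397 libraries were above all controls (0.71, SE 0.10, edgeR adjusted p = 0.000226). The other reactive gene that rose was C4b, described above, while Vim and Serpina3n, 2 further reactive genes, were at 112% and 109% and were not called. Sparc, a secreted matrix protein that microglia and endothelium also make, was at 162, 127, 148, 121 and 126 CPM in control mice 1 to 5 and 74.5, 114, 69.3, 73.5 and 101 CPM in PLX3397 mice 1 to 5. The groups did not overlap (edgeR adjusted p = 0.00987). Its relative Sparcl1 was among the 6 stable genes with the largest gains in CPM per kilobase, going from 1682 to 1852 CPM. Aqp4, the water channel of astrocyte end-feet, was at 101% of control with overlapping groups, and the potassium channel gene Kcnj10 at 88.1% (edgeR adjusted p = 0.0145). The 6 reactive genes called lower became 2 without PLX3397 mouse 4 and 3 without control mouse 5, and the 4 general genes called lower became 7 without PLX3397 mouse 1.

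Along the vessels, 6 of 13 genes of venous endothelium fell and 0 rose (median -0.29), and no other venous gene was called. In arterial endothelium 0 of 18 genes were stable, in capillary endothelium 1 of 16 rose and 2 fell, and in smooth muscle 2 of 18 fell. Cspg4, counted above as a precursor gene, also stands in the smooth muscle and pericyte lists and is among the genes that fell there. The difference between zones was not tested. Icam1, an adhesion molecule for leukocytes, was at 5.04, 2.44, 3.15, 2.25 and 3.58 CPM in control mice 1 to 5 and 1.78, 1.16, 1.46, 1.2 and 0.989 CPM in PLX3397 mice 1 to 5. Control mouse 1 was highest and the groups did not overlap (-1.34, SE 0.20, edgeR adjusted p = 5.20e-05). Vcam1, a second adhesion molecule, was left at 82%, Ackr1, a chemokine scavenger of veins, at 82.9% and Plaur, the urokinase receptor, at 50.8%. Microglia also express Icam1, Ptgs1 and Plaur, which stand in the venous list, and Ackr1 shares exonic bases with Cadm3 on its own strand.

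Of 46 genes of brain endothelium in general 4 fell (Emcn, Cav1, Cd93 and Itm2a). Emcn, a sialomucin of veins and capillaries, was at 6.19, 5.69, 5.69, 5.51 and 4.76 CPM in control mice 1 to 5 and 3.56, 3.14, 3.27, 2.87 and 3.96 CPM in PLX3397 mice 1 to 5. The groups did not overlap (-0.74, SE 0.11, edgeR adjusted p = 1.49e-05). Cldn5, the claudin of the blood-brain barrier, was at 25.7, 27.1, 25.8, 24.5 and 20.7 CPM in control mice 1 to 5 and 21.6, 26.4, 20.9, 23.7 and 19.4 CPM in PLX3397 mice 1 to 5. It was not called (edgeR adjusted p = 0.272), nor was the glucose transporter gene Slc2a1 at 89.5%. The number called lower in this list was 13, and it became 7 without PLX3397 mouse 2 and 8 without control mouse 1 or 3 or PLX3397 mouse 3 or 5. Slco2b1, an anion transporter in the capillary list that microglia also express, was left at 26.5%, and Tfrc, the transferrin receptor, rose to 124% with overlapping groups. In pericytes Rgs5, a regulator of G proteins, was left at 84.4% and the adhesion gene Mcam rose to 132%. Acta2, smooth muscle actin, was at 97.6% with overlapping groups.

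In neurons, most receptor and synapse genes did not pass, and more of those that passed were higher than lower. Stable calls over all genes tested were 3.55% higher and 3.34% lower. Of 38 glutamate and GABA receptor genes 6 rose and 0 fell (median 0.10), of 55 presynaptic genes 6 rose and 0 fell (median 0.03), of 48 postsynaptic genes 8 rose and 3 fell (median 0.04) and of 61 potassium channel genes 5 rose and 3 fell. Gabrb2, a GABA-A receptor subunit, was at 125, 144, 131, 146 and 140.0 CPM in control mice 1 to 5 and 184, 160.2, 176, 194 and 206 CPM in PLX3397 mice 1 to 5. Every PLX3397 library was above every control (0.42, SE 0.06, edgeR adjusted p = 1.77e-05). Ncam2, an adhesion molecule, was at 43.1, 47.7, 42.7, 51.6 and 46.1 CPM in control mice 1 to 5 and 67.8, 65.1, 66.4, 66 and 82 CPM in PLX3397 mice 1 to 5. PLX3397 mouse 5 was highest and no groups overlapped (edgeR adjusted p = 6.69e-06). Cdh2, the neuronal cadherin, rose to 124% of control, the channel gene Kcna1 to 125%, and the active zone gene Pclo to 117%. Snap25, a vesicle fusion protein of neurons, was at 97.1% and was not called, nor was the receptor gene Grin1 at 101%. The count of called receptor genes was 13 higher, and 8 with length and GC trends removed, and of called potassium channel genes 12 higher, which became 7 without control mouse 1 or PLX3397 mouse 1. Kcnk6, a potassium channel that microglia express, fell by 1.26 on the log2 scale.

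Of 47 tested genes that neuronal activity induces, 9 fell and 0 rose (median -0.33). In all 18 were called lower and 29 were not called, and 11 were called lower with length and GC trends removed. Nptx2, a secreted pentraxin that clusters glutamate receptors, was at 71.9, 72.5, 76.6, 70.4 and 77.2 CPM in control mice 1 to 5 and 58.8, 44.9, 49.6, 51.8 and 51.1 CPM in PLX3397 mice 1 to 5. The groups did not overlap (-0.52, SE 0.06, edgeR adjusted p = 1.00e-06). Vgf, the precursor of neuropeptides, was at 336, 328, 347, 333 and 379 CPM in control mice 1 to 5 and 313, 268, 256, 272 and 254 CPM in PLX3397 mice 1 to 5. PLX3397 mouse 1 was highest of its group and still below every control (edgeR adjusted p = 5.98e-05). Spry4 and Dusp6, 2 feedback inhibitors of growth factor signals, were left at 61.3% and 69.7%, and the early response gene Egr4 at 68.8%. Several of the fastest genes were not called. Arc, a regulator of synaptic receptors, was at 102, 99.8, 203, 241 and 346 CPM in control mice 1 to 5 and 56.2, 97.2, 98.1, 139 and 229.5 CPM in PLX3397 mice 1 to 5. Control mouse 5 was highest and PLX3397 mouse 1 lowest, the groups overlapped, and Arc was not called (edgeR adjusted p = 0.343). In both groups Arc tended to climb with mouse number, and a link between same-numbered mice in this gene was not tested. Fos and Npas4 were at 72.3% and 89.4% and were not called.

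**Figure D4:**
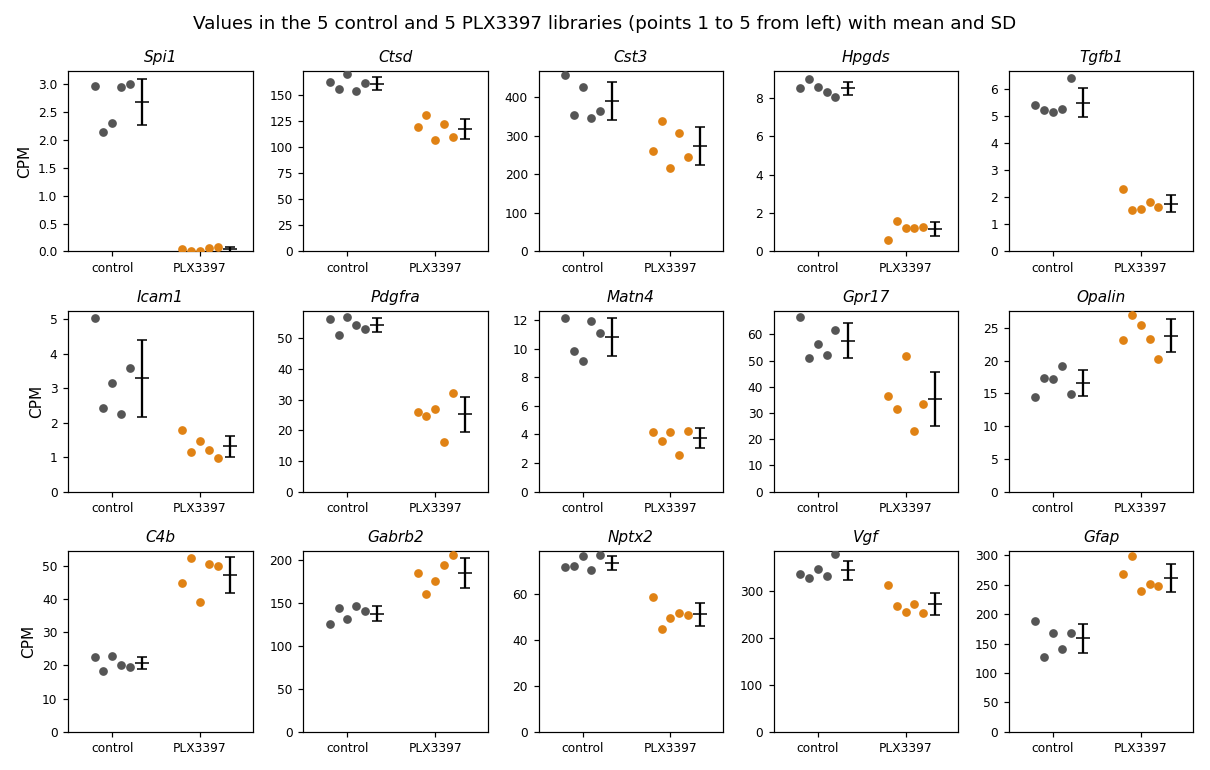
CPM of 15 genes in each of the 5 control and 5 PLX3397 libraries, with the mean and SD beside the points and every axis starting at 0. Points of the groups do not overlap in any panel except that of Gpr17, where PLX3397 mouse 3 (51.9 CPM) reaches above control mouse 2 (50.9 CPM).

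Some markers of neuron types were stable, set beside 3.55% stable higher and 3.34% stable lower over all genes tested. Of 18 upper-layer genes 0 were stable and of 27 deep-layer genes 2 rose and 1 fell. Of 36 interneuron genes 2 rose and 1 fell. Pvalb, a calcium buffer of fast-spiking cells, was at 29.3, 28, 28.1, 27.7 and 28.3 CPM in control mice 1 to 5 and 25.7, 21.9, 23.4, 24.1 and 17.8 CPM in PLX3397 mice 1 to 5. PLX3397 mouse 5 was lowest and the groups did not overlap (edgeR adjusted p = 0.00133). The peptide genes Sst, Vip and Npy were at 88.3%, 84.5% and 79.2%, calls that were not stable. Erbb4, a receptor gene in the interneuron list, rose to 119.9% and Reln, a secreted guide of migration, to 121%. Of 42 genes for perineuronal nets and matrix 3 rose and 3 fell. Bcan, the brevican core protein of nets, was left at 84.6% (edgeR adjusted p = 5.16e-06), whereas Acan and Hapln1 were at 109.9% and 106% and were not called. Mmp16, a membrane protease, rose to 134% and Mmp2, a secreted one, was left at 62.2%.

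Of 32 genes for sterol synthesis and its regulation 7 rose and 0 fell. Lss, the lanosterol synthase of cholesterol synthesis, was at 38, 45.8, 39.5, 45.1 and 38.2 CPM in control mice 1 to 5 and 45.8, 48.6, 50.8, 50.8 and 52 CPM in PLX3397 mice 1 to 5. The groups met without overlapping (0.26, SE 0.05, edgeR adjusted p = 0.0011), and Lss shares exonic bases with 4930483K19Rik on the opposite strand. Sqle, a further enzyme of this pathway, rose to 115% of control. In iron handling 2 of 21 genes rose and 2 fell. Slc11a1, the iron transporter of phagosomes, was left at 3.37% and the ferritin light chain gene Ftl1 at 79.9%, while the heavy chain gene Fth1 was at 97.4% and was not called. In cell death, 4 of 37 genes fell and 0 rose, among them the protease gene Casp8 at 37.5% and the pore gene Gsdmd at 48.1%. Of 36 interferon-response genes 4 fell and 0 rose, and of 23 genes for MHC and antigen processing 7 fell and 0 rose. B2m, the light chain of MHC class I, was left at 76% and the class II gene H2-Ab1 at 19.2%.

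Some genes outside the lists rose from a low level. They were taken at 1 CPM or more in the higher group, so Ddias, Ckap2 and Ect2 entered through their PLX3397 values alone. Ddias, a gene linked to DNA damage, was at 0.512, 0.455, 0.514, 0.327 and 0.473 CPM in control mice 1 to 5 and 1.03, 0.987, 1.08, 0.785 and 1.25 CPM in PLX3397 mice 1 to 5. The groups did not overlap (1.14, SE 0.23, edgeR adjusted p = 0.00114). Ckap2 and Ect2, which act in cell division, were at 198% and 195% of control, and the groups overlapped in Ckap2 but not in Ect2. Htr1f, a serotonin receptor, was at 155%, Ror1, a receptor for a Wnt ligand, at 161% and Blm, a DNA helicase, at 147%. The groups overlapped in Ror1 and Blm. In the cell cycle list 4 of 47 genes rose and 2 fell, the cyclin genes Ccnd1 and Ccnd2 among those that fell. The proliferation marker genes Mki67 and Top2a were called higher (0.47 and 0.72) without being stable, and the 10 cell cycle genes called higher became 5 without PLX3397 mouse 5 and 6 without control mouse 2 or PLX3397 mouse 1.

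In families that cells of every type express, most members were not stable, as was true over all genes (3.55% stable higher, 3.34% stable lower). Of 82 genes for cytosolic ribosomal proteins, which are short, 7 fell and 0 rose (median -0.18). The number called lower was 40, and it was 11 with length and GC trends removed, 71 without PLX3397 mouse 2, 21 without control mouse 1 or 3, 23 without PLX3397 mouse 5 and 26 without PLX3397 mouse 1 or 3. These genes have many pseudogene copies, so their counts are uncertain. Of 47 ubiquitin-specific protease genes 4 rose and 0 fell, led by Usp9x at 133% of control. Of 62 chromatin genes 5 rose and 2 fell, among them the histone demethylase gene Kdm6a, which rose to 129%. Of 363 Zfp zinc finger genes 19 rose and 3 fell, and 299 were not called.

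Calls over all genes also varied with length and GC content. The genes were split into 5 equal classes by exon length and by GC content. In the shortest class 1.34% of genes were called higher and 8.15% lower, and in the longest 22.4% and 5.82%. In the class with the lowest GC content 18.7% were higher and 3.01% lower, and in the highest 0.975% and 18.8%. With these trends removed in each library 1585 genes were called higher (8.63%) and 861 lower (4.69%), and 1626 genes were called in the same direction in both fits. The median log2 fold change over all genes was -0.0019 as designed and 0.038 with the trends removed. The trends move with the treatment groups, and their part in the small changes was not tested beyond this fit.

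**Figure D5:**
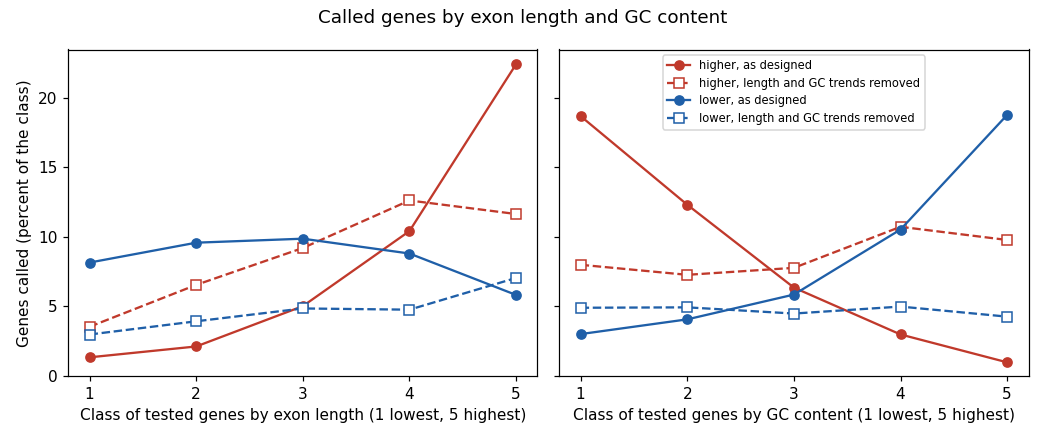
Percent of genes called higher (red) and lower (blue) on PLX3397 in 5 equal classes of the tested genes by exon length (left) and GC content (right), in the fit as designed (filled points) and with length and GC trends removed (open squares). The share called higher climbs from 1.34% to 22.4% with length, in the fit as designed. With trends removed the length classes hold 127 to 453 genes called higher and 107 to 253 called lower.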

How the data were processed

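Read counts of the cortex of 15 mice were used, 5 per group, grouped by their labels. The deposited values are raw counts per gene symbol, which the authors gave as whole numbers. The mm10 genome, STAR, FastQC, MultiQC, DESeq and DESeq2 are named, per the submitters' processing notes, without roles or versions. Which tool counted reads, with which annotation and strand setting, is not given in the sources used here.

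Genes were kept by filterByExpr, scaled with TMM factors and tested with edgeR 4.0.16 in R 4.3.3 (robust quasi-likelihood F test, Benjamini-Hochberg over 18369 genes, threshold 0.05). All 15 libraries shared 1 estimate of the spread. CPM uses the TMM-scaled totals, errors of CPM are SDs over 5 mice, and SE is the error of the log2 fold change. The contrast between PLX3397 and control was fitted without covariates, since the labels name no batch. Libraries of 1 group differed by more than sampling noise (chi-square 2.6 to 9.95 per degree of freedom over 20 pairs).

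Exon lengths, GC content, exon overlaps and coordinates came from GENCODE M21 (GRCm38, that is mm10), joined by symbol, with values for 97.8% of tested genes. Length and GC trends were removed as offsets per library (splines with 5 degrees of freedom). Promoters came from RefSeq (GRCm38.p6), with none shown from chromosome 18.

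The comparison, the 56 gene lists, the 8 families by symbol and the alternatives were chosen with earlier results of these data known. Named are Csf1r, Cx3cr1 and P2ry12, in each list up to 4 stable calls with the lowest adjusted p, the 10 higher and 10 lower stable calls with the largest change outside lists at 1 CPM or more in the higher group, the 6 largest gains and losses in CPM per kilobase, and fixed reference genes. Some genes that this rule names are not reported here. Other list members named in the text were chosen after their values were seen. Lists are described by counts and medians, without a test of the list. Alternatives were DESeq2 1.42.0, its size factors, library totals, a filter of 1 CPM in 5 libraries, no filter, only 10 libraries, a replicate block, length and GC offsets, both together, and leaving out each library.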

Additional observations from a re-analysis of the deposited data

Results flagged for a closer look

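The genes named by rule that are reported here and all gene lists were checked for a single mouse that stood apart from the other 4 of its group, by a gap test for 5 values with a critical value of 0.71. This picked out 37 of 506 groups of 5 values, where chance alone gives about 1 in 20, and no explanation was weighed. Values below are CPM, with the range of the other 4 mice.

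Control mouse 1 was high in Cspg4 (27.3 against 22.6 to 23.7) and the summed hippocampus genes (339.8 against 195 to 207). It was low in Adamts4 (26.8 against 29.2 to 30.0), Ptafr (0.840 against 1.31 to 1.5) and mt-Nd5 (3599 against 4042 to 4173). Control mouse 2 was low in Trf (47.2 against 52.4 to 53.8). Control mouse 3 was high in Hpgd (4.08 against 3.35 to 3.51), Mag (191 against 176 to 179) and Reln (117 against 103 to 107). It was high in the summed MHC and antigen processing genes (236 against 217 to 222). Control mouse 4 was high in Slc11a1 (2.74 against 1.89 to 2.13). It was low in Grn (49.1 against 52.6 to 53.6), Htr1f (2.25 against 2.70 to 2.88) and Mrc1 (3.55 against 5.93 to 6.38). Control mouse 5 was high in Sod2 (125 against 121 to 122) and Tgfb1 (6.42 against 5.14 to 5.39). It was low in Cdh2 (89.8 against 92.5 to 92.9) and Itm2a (22.2 against 28.6 to 29.0).

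PLX3397 mouse 1 was high in Bin2 (0.107 against 0), Ccnd1 (42.0 against 32.0 to 33.7) and Ccnd2 (76.4 against 59.4 to 63.2). It was high in Csf1r (0.427 against 0.129 to 0.176), Tbxas1 (0.392 against 0.244 to 0.282) and Trib2 (41.8 against 30.8 to 33.2). PLX3397 mouse 2 was high in Tmsb4x (275 against 213 to 225) and the summed hippocampus genes (303 against 186 to 212). It was low in Gna15 (0 against 0.0341 to 0.0430) and Sparcl1 (1714 against 1877 to 1903). PLX3397 mouse 4 was high in Cd74 (1.71 against 0.976 to 1.17), Parp14 (4.03 against 2.19 to 2.71) and Stab1 (3.59 against 1.81 to 2.13). PLX3397 mouse 5 was high in Baz2b (51.3 against 46.4 to 47.7), Ncam2 (82.0 against 65.1 to 67.8) and Usp34 (218 against 184 to 194). It was low in B2m (37.5 against 44.6 to 46.8), Mal (249.5 against 291 to 305) and the summed iron handling genes (1914 against 2126 to 2181).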

How the results depend on the processing

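Of 76 counts over all genes under the alternatives, 71 stayed within 1.5 times the value reported and 5 did not. Genes called lower numbered 861 with length and GC trends removed and 825 with the replicate block added to that, against 1533. Genes higher by at least 1 log2 unit numbered 2 with at least 1 CPM in 5 libraries, 33 without a count filter and 12 in the fit of 10 libraries, against 19, so that count rests on genes of low counts. The cause of the other changes was not tested. The replicate numbers of the labels showed no pairing in expression. Correlations of same-numbered libraries were -0.196 to 0.04, and none matched its own number best. Single genes can still follow the numbers, as Arc did, whose values tended to climb with mouse number in both groups. Shared housing or handling that leaves no trace in expression cannot be seen this way. With the replicate block 1376 genes were higher and 1456 lower. Without 1 library in turn, 1155 to 1577 genes were higher and 1223 to 1656 lower. Among single genes and list counts 5835 values kept their direction and call or stayed near the value reported, 281 moved, 25 lost their call and 10 changed sign, all 10 in genes that were not called. Acta2 turned to 0.041 with length and GC trends removed and 0.046 with the replicate block added to that, and ran from -0.096 to 0.028 without 1 library in turn. Cldn5 turned to 0.031 and 0.026 in the same fits. Without 1 library Aqp4 ran from -0.028 to 0.073 and Mbp from -0.0017 to 0.088. Depth limits genes near or under 1 CPM, where a library holds 23.4 to 48.6 reads or fewer.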
